A study of Mus musculus with 12 samples.

Results

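Wnt ligands and their Frizzled-type receptors were followed in side population cells of 2 mouse muscle sources. The members were all probe sets whose only gene symbol on the array was a Wnt gene, a Frizzled (Fzd) gene, or one of Lrp5, Lrp6, Ryk, Ror1, Ror2 and Ptk7. They were 70 of 45037 probe sets and 35 of 18193 named genes: 19 ligand genes with 32 probe sets and 16 receptor genes with 38. The cells came from extraocular muscle (EOM), which moves the eye, and from tibialis anterior (TA), a muscle of the lower hind limb. Each source gave 6 separately isolated preparations, and each preparation was hybridized to 1 Affymetrix whole-genome array, so that 6 EOM and 6 TA arrays were compared. Side population cells are recognized by their export of the dye Hoechst, a property that several kinds of stem and progenitor cells share. Strain, age, sex and treatment of the mice were not given in the sources used here, nor were the sorting gate or how many animals each preparation held.

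Wnt proteins are secreted, lipid-bearing signals that bind the cysteine-rich domain of Frizzled receptors. Together with the co-receptors Lrp5 or Lrp6, a bound Frizzled stabilizes beta-catenin, which then acts with TCF/LEF factors on target genes. Other Wnts, with Ror1, Ror2, Ryk or Ptk7 as receptors or co-receptors, act on cell polarity and calcium, independently of beta-catenin. In skeletal muscle, Wnt signals are known from satellite cell division, fibrosis and the development of the limb and of the region around the eye.

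Signals are MAS5 values, 1 number per probe set, scaled so that all arrays share 1 trimmed mean of 150. Most arrays were alike, but EOM 1, TA 3 and TA 5 stood apart, with median signals of 87.2, 69.5 and 63.1 against 31.1 to 43.4 on the other 9. Their ratios of 3' to 5' beta-actin signal, which rise as amplified RNA is shortened, were 104, 165 and 100.2, against 5.27 to 68.6 on the others. The median correlation of an EOM array with the rest of its group was 0.630 for EOM 1 and 0.942 to 0.953 for the other 5. Results are therefore given with all 12 arrays and without EOM 1. Fold changes are differences of log2(signal + 16), EOM minus TA. A gene was called when limma gave an adjusted p under 0.05 (Benjamini-Hochberg over all 27022 tested probe sets), and it is represented by its tested probe set with the highest mean.

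Wnt11 was the only ligand or receptor gene called, and it was higher in EOM. Of 11 ligand genes tested, 1 rose and 0 fell, and of 14 receptor genes 0 rose and 0 fell (limma). Over all 13067 tested genes 4.05% were called higher and 6.81% lower (3.20% and 5.03% of probe sets), so that 1 of 25 members was close to the first share. At an unadjusted p under 0.05 there were 3 ligand and 5 receptor genes, against 23.6% of all tested genes. The median log2 fold change was 0.28 for ligands and 0.30 for receptors, beside -0.04 for all tested genes, and 18 of the 25 members had a positive estimate. Without EOM 1 the receptors changed: 5 of 14 were then called higher, Ror1, Lrp6, Fzd1, Fzd2 and Fzd5, and 0 lower, while the share of all tested genes called higher went to 10.0% and that called lower to 10.5%. The ligand count without EOM 1 stayed at 1. The medians were then 0.12 for ligands, 0.39 for receptors and -0.07 for all tested genes. In bulk RNA, more cells of a type and more RNA per cell cannot be told apart.

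**Figure D1:**
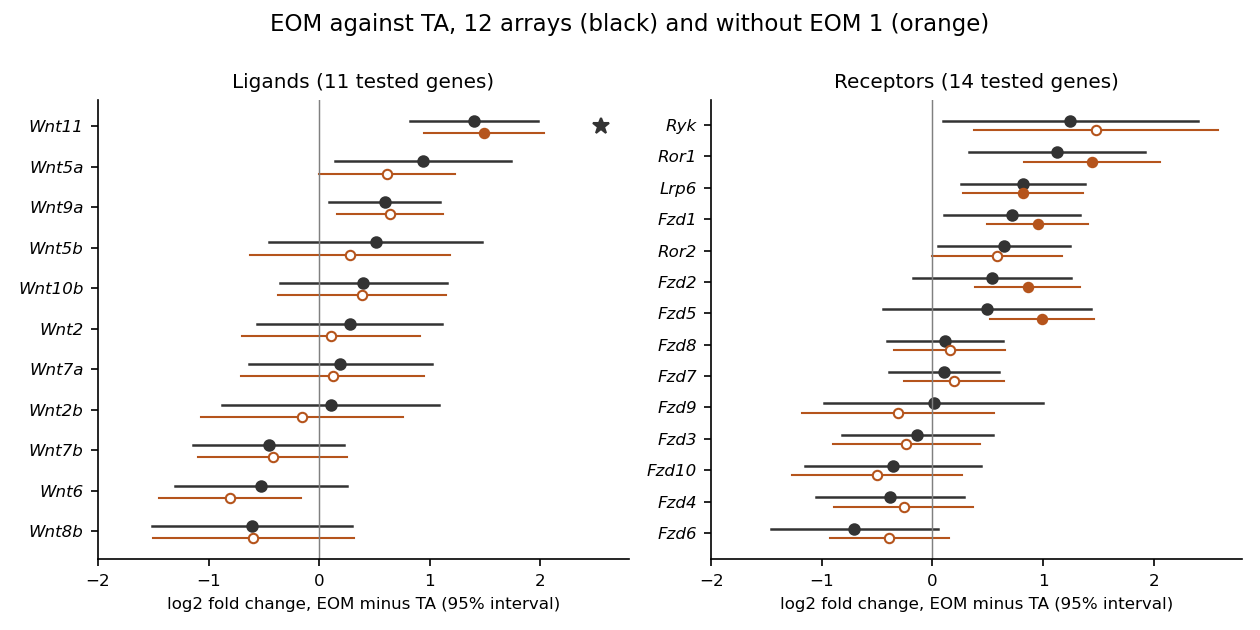
Log2 fold changes (EOM minus TA) of 11 ligand and 14 receptor genes with their 95% intervals from limma, with 12 arrays (black, n = 6 per group) and without EOM 1 (orange; filled where the adjusted p is under 0.05). The star marks Wnt11, at 1.40 the only gene called with 12 arrays; the filled orange points among the receptors are Ror1, Lrp6, Fzd1, Fzd2 and Fzd5.

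Wnt11 is a ligand best known for cell movement and polarity signalling in the early embryo and heart, and for orienting fibres in developing muscle. Its signal was 688 on EOM 0, 487 on EOM 1, 957 on EOM 2, 1094 on EOM 3, 428 on EOM 5 and 630.0 on EOM 6. On the TA arrays it was 228 (TA 0), 230.0 (TA 1), 271 (TA 2), 385 (TA 3), 175 (TA 5) and 231 (TA 6). All 6 EOM arrays were above all 6 TA arrays, and the array nearest to the other group was TA 3. Groups did not overlap for 1 of the 25 tested members, Wnt11, and for 7.13% of all tested genes. Wnt11 had no second member probe set, so its change could not be compared between probe sets. The means were 714 ± 262 in EOM and 253 ± 71.5 in TA (SD, n = 6), and the log2 fold change was 1.40 ± 0.28 (SE, limma adjusted p = 0.00277), with a 95% interval of 0.82 to 1.98. With each array left out in turn it stayed between 1.26 and 1.53, with an adjusted p of at most 0.0109, and EOM 1 was not the array it rested on (1.49, adjusted p = 0.000430 without it).

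The 250 bases before each of the 2 Wnt11 transcription starts listed by RefSeq (GRCm38.p6, plus strand) are shown because Wnt11 is the gene called, and because TCF/LEF factors are the DNA-binding end of the pathway itself. Capitals mark matches to a TCF/LEF motif (CTTTGAA or CTTTGAT, and also CTTTGTA or CTTTGTT) or to TATAAA, searched on both strands.
Wnt11 first start, chr7:98834862-98835111: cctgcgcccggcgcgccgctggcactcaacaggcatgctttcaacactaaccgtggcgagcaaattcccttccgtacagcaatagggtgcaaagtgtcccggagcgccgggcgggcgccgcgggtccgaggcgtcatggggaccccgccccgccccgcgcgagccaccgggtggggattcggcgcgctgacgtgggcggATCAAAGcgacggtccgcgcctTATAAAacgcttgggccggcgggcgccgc
Wnt11 second start, chr7:98838595-98838844: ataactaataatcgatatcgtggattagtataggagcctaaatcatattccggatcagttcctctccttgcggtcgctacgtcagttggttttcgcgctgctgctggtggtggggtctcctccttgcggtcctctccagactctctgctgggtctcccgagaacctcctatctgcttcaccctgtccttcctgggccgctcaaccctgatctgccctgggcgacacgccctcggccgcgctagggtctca
The first window held 1 TCF/LEF match, read on the opposite strand as ATCAAAG, 51 to 45 bases before the start, and 1 TATAAA, 29 to 24 bases before it. The second window held neither, and the matches do not overlap. Of all 32851 RefSeq windows of this length, 14.8% held the TCF/LEF motif and 12.4% TATAAA. The table held 28 windows of 25 member genes, and the TCF/LEF motif was in 3 of them, before Wnt11, Wnt5b and Fzd7. Fzd2, Fzd3, Fzd6, Fzd8, Lrp5, Lrp6, Wnt10a, Wnt5a, Wnt7b and Wnt8a had no entry. A match describes the letters only, and the array does not show which start was used.

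Among the other ligands, Wnt5a and Wnt9a had the largest positive estimates. Wnt5a, the main ligand of Ror receptors, had signals from 79.9 to 433 (median 112) in EOM and from 22.2 to 95.9 (median 63.6) in TA. The groups overlapped, and the top EOM value was that of EOM 1, with the next at 127. Its log2 fold change was 0.94 ± 0.38 (limma adjusted p = 0.160), and 0.61 (adjusted p = 0.177) without EOM 1. It passed with each array centred on its median (1.03, adjusted p = 0.0477), with array weights (0.71, adjusted p = 0.0472) and with the actin ratio added to the model (1.23, adjusted p = 0.00650). The second tested probe set of Wnt5a gave 0.30 (adjusted p = 0.791), and there EOM 1 was the lowest EOM array, at 6.1.

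Wnt9a, a ligand known from joint formation, was at 308 to 405 (median 391) in EOM and at 182 to 381 (median 235) in TA. Of the 6 EOM arrays 4 were above every TA array, and TA 3 was the TA array that reached into the EOM range. Its log2 fold change was 0.59 ± 0.24 (limma adjusted p = 0.163), and 0.64 (adjusted p = 0.0623) without EOM 1. Without EOM 1, TA 3 and TA 5 it passed (0.71, adjusted p = 0.0189), as it did with array weights (0.72, adjusted p = 0.00695).

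The other 8 tested ligands had estimates on either side of 0 and wide intervals. Wnt5b, a close relative of Wnt5a, was at 0.51 (95% interval -0.45 to 1.48), and Wnt10b, known for holding back fat cell formation, at 0.40 (-0.36 to 1.16). Wnt2 was at 0.28, Wnt7a, a signal for the expansion of satellite stem cells, at 0.19, and Wnt2b at 0.10. With single arrays left out these moved by over 1.5 times: Wnt5b was at 0.28 without EOM 1, 0.22 without TA 5 and 0.87 without TA 3, Wnt10b at 0.19 without EOM 3, Wnt2 at 0.11 without EOM 1, and Wnt2b at -0.15 without EOM 1 and 0.37 without TA 3; Wnt7a was at -0.05 without TA 3. Negative estimates were found for Wnt7b (-0.46), Wnt6 (-0.52) and Wnt8b (-0.61), none of which passed (limma adjusted p of 0.502, 0.503 and 0.502); with 1 array left out they lay between -0.93 (Wnt8b) and -0.25 (Wnt7b). For Wnt6 the signals were 40.4 to 224 (median 66.5) in EOM and 69.1 to 228 (median 102) in TA, and without EOM 1, the EOM array at 224, its log2 fold change was -0.81 (adjusted p = 0.0830). No interval of the 11 ligand genes lay wholly between -1 and 1.

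The other 8 ligand genes could not be tested because their signals were low: Wnt1, Wnt3, Wnt3a, Wnt4, Wnt8a, Wnt9b, Wnt10a and Wnt16. So were the co-receptor Lrp5 and the kinase-like receptor Ptk7. The 12 probe sets of these 10 genes had group medians of at most 34.5. Their highest single signal was 163, for Wnt9b on EOM 1, and in 9 of the 12 the top array was EOM 1, TA 3 or TA 5. Fitted without a filter, none passed (limma, lowest adjusted p = 0.236, for Wnt4 at -0.89; 1 of 12 had an unadjusted p under 0.05). Tested genes were thus 11 of 19 ligands (57.9%) and 14 of 16 receptors (87.5%). A low signal does not show that a gene was absent.

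**Figure D2:**
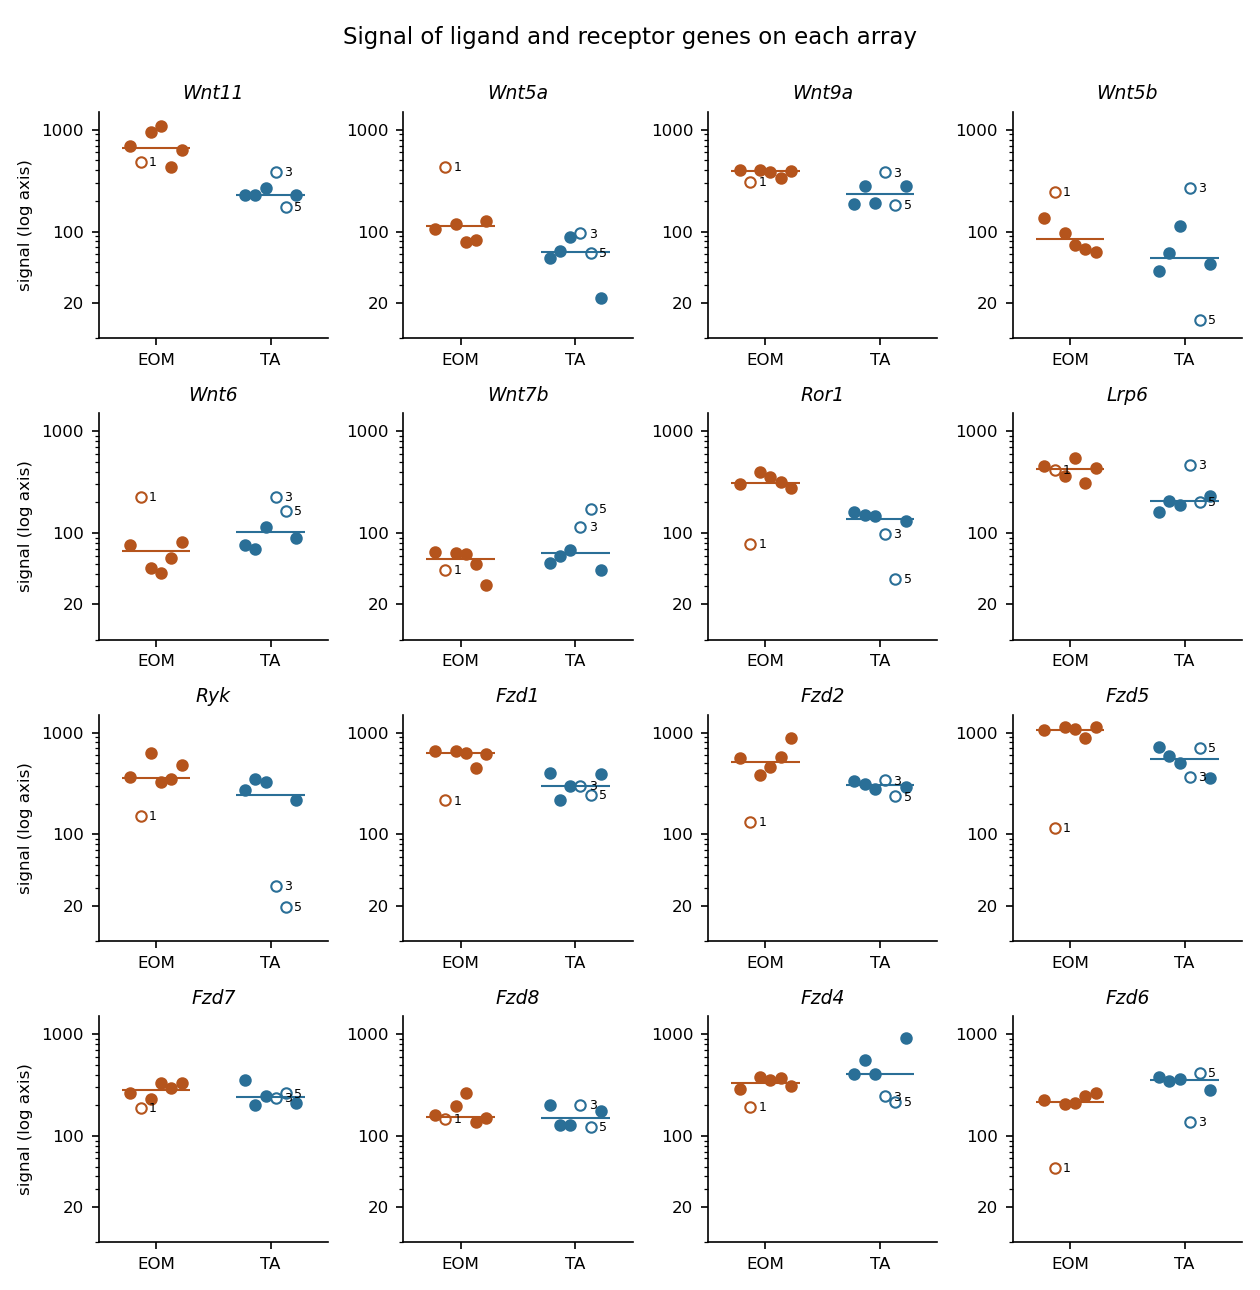
Signal (log axis) of 6 ligand and 10 receptor genes on each EOM (orange) and TA (blue) array, with the group median as a line; open points labelled 1, 3 and 5 are EOM 1, TA 3 and TA 5. Wnt11 has no overlap between the groups, and EOM 1 lies far below the other EOM arrays in Ror1, Fzd1, Fzd2, Fzd5 and Fzd6.

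The receptors for polarity-type signals, Ror1, Ryk and Ror2, had positive estimates. Ror1, a tyrosine kinase-like receptor for Wnt5a, was at 77.8 to 394 (median 310) in EOM and at 35.6 to 160 (median 138) in TA. Of the EOM arrays 5 were at 277 or more, above every TA array, and EOM 1 was at 77.8. The log2 fold change was 1.13 ± 0.38 (limma adjusted p = 0.0796) with all arrays, and 1.44 ± 0.29 (adjusted p = 0.00193) without EOM 1. The other Ror1 probe sets were too low to test.

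Ryk, which binds Wnts through a domain of its own, was at 151 to 629 (median 357) in EOM and at 19.5 to 352 (median 245) in TA. TA 3 and TA 5 were far lower than the other TA arrays, at 31.0 and 19.5. The estimate was the largest of the receptors, 1.25 ± 0.55, and did not pass (limma adjusted p = 0.205). It was 1.48 (adjusted p = 0.0645) without EOM 1, but 0.51 (adjusted p = 0.147) without EOM 1, TA 3 and TA 5. Of its other tested probe sets, 1 gave 0.94 (adjusted p = 0.476) and passed without EOM 1 (1.496, adjusted p = 0.0403), and 1 gave 0.67 (adjusted p = 0.359) and did not pass. Ror2, the partner of Ror1, was at 121 to 211 (median 152) in EOM and at 49.3 to 172 (median 101) in TA, with a log2 fold change of 0.65 ± 0.28 (adjusted p = 0.205). The Ror2 estimate was 0.58 (limma adjusted p = 0.1745) without EOM 1, and 0.30 (adjusted p = 0.450) without EOM 1, TA 3 and TA 5.

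Lrp6, the co-receptor of the beta-catenin route, was at 308 to 550.2 (median 424) in EOM and at 160 to 463 (median 204) in TA. TA 3 alone overlapped the EOM range, since the other TA arrays were at 229.9 or less. The log2 fold change was 0.82 ± 0.27 (limma adjusted p = 0.0688). It passed without TA 3 (1.02, adjusted p = 0.00866), without EOM 1 (0.82, adjusted p = 0.0370), with the lowest 60% of probe sets removed (0.82, adjusted p = 0.0484) and with its probe sets averaged (0.77, adjusted p = 0.0156). The second tested probe set of Lrp6 was at 0.71 (adjusted p = 0.279).

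All 10 Frizzled genes were tested, and none was called with 12 arrays (limma, 1 at an unadjusted p under 0.05). Their median log2 fold change was 0.06, and -0.04 without EOM 1. Fzd1, Fzd2 and Fzd5 were high on 5 EOM arrays and low on EOM 1. Fzd1 was at 447 to 660.4 on those 5 arrays and at 216 on EOM 1, against 216 to 397 in TA (median 300.4). Its log2 fold change was 0.72 ± 0.29 (adjusted p = 0.161) with all arrays and 0.95 ± 0.22 (adjusted p = 0.00481) without EOM 1. The second tested Fzd1 probe set, with a median of 35.5 in EOM and 47.0 in TA, gave -0.20 (adjusted p = 0.864).

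Fzd2, of the same subfamily as Fzd1 and Fzd7, was at 382 to 888 on 5 EOM arrays and at 133 on EOM 1, against 236 to 339 in TA (median 303). The log2 fold change was 0.54 ± 0.34 (limma adjusted p = 0.435), and 0.86 ± 0.23 (adjusted p = 0.0131) without EOM 1. Its other tested probe sets gave 0.77 and 0.71 with all arrays, and 1.34 (adjusted p = 0.00306) and 0.79 (adjusted p = 0.0271) without EOM 1, so all 3 Fzd2 probe sets then passed.

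Fzd5, a receptor needed for eye and vessel development, had the widest gap between EOM 1 and the rest. It was at 877 to 1131 on 5 EOM arrays and at 117 on EOM 1, against 354 to 725 in TA (median 545). The log2 fold change was 0.49 ± 0.45 (limma adjusted p = 0.643) with all arrays and 0.99 ± 0.22 (adjusted p = 0.00442) without EOM 1. The second tested Fzd5 probe set gave 0.57 (adjusted p = 0.294), and 0.59 (adjusted p = 0.185) without EOM 1, which was within the range of the other EOM arrays there.

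For Fzd7, the Wnt7a receptor of satellite cells, and for Fzd8 the groups lay on top of each other. Fzd7 was at 188 to 332 (median 279) in EOM and at 203 to 355 (median 241) in TA, a log2 fold change of 0.10 with a 95% interval of -0.40 to 0.60. Fzd8 was at 138 to 261 (median 154) in EOM and at 122 to 203 (median 152) in TA, at 0.12 (-0.41 to 0.64). With Fzd3 (-0.14, interval -0.82 to 0.54), these were the 3 members with an interval that excluded a 2-fold difference in either direction. This holds for the representative probe sets, and for signal plus the added constant. That constant makes fold changes of low signals smaller. For Fzd3, with medians of 52.65 in EOM and 63.15 in TA, a 2-fold fall in signal alone was not shown to be excluded. Of the other tested Fzd3 probe sets, 1 gave 0.09 (-0.60 to 0.77) and 1 gave -0.55 (-1.32 to 0.22), which does not exclude a 2-fold fall. Whether Fzd1 or Fzd2 differed from Fzd7 in its change was not tested.

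Fzd4 and Fzd6 had negative estimates. Fzd4, the endothelial receptor for norrin in retina and brain vessels, was at 194 to 382 (median 333) in EOM and at 217 to 923 (median 408) in TA. Its log2 fold change was -0.39 ± 0.32 (limma adjusted p = 0.593), and its second tested probe set gave -0.53 (adjusted p = 0.415). Fzd6, known from hair follicle and tissue polarity, was at 48.8 to 263 (median 217) in EOM and at 138 to 417 (median 354) in TA. EOM 1 and TA 3 were the lowest arrays of their groups, and TA 3 reached into the EOM range. The estimate was -0.71 ± 0.36 (adjusted p = 0.294), and -0.39 (adjusted p = 0.345) without EOM 1; with array weights it passed (-0.59, adjusted p = 0.0451). Without EOM 1, TA 3 and TA 5 the groups no longer overlapped (beside 20.9% of all tested genes) for Fzd4 (-0.65, adjusted p = 0.0670) or Fzd6 (-0.55, adjusted p = 0.0576), and neither passed. Fzd9 (0.01) and Fzd10 (-0.36) completed the family, with signals of at most 174.

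Of the single arrays, EOM 1 altered the receptor count most. It was the lowest EOM array for 8 of 14 receptor genes and 1 of 11 ligand genes, and the highest for 1 receptor and 5 ligands. Called member genes numbered 6 without it, against 2 without TA 3 (Wnt11 and Lrp6) and 1, Wnt11, in each of the other 10 fits. Member genes whose groups did not overlap numbered 1 with all arrays, and 5 without EOM 1 (Wnt11, Ror1, Fzd1, Fzd2 and Fzd5) beside 15.1% of all tested genes. Without EOM 1, TA 3 and TA 5, 2 ligand genes (Wnt11 and Wnt9a) and the 5 receptors named above were called higher and 0 lower, beside 10.6% of all genes higher and 11.2% lower. EOM 1 also had the highest median signal of the 12 arrays and a 3' to 5' ratio of 104; with that ratio as a covariate 2 ligand genes (Wnt11 and Wnt5a) and 1 receptor gene (Lrp6) passed as higher and 0 member genes as lower, beside 5.79% of all tested genes higher and 9.03% lower.

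**Figure D3:**
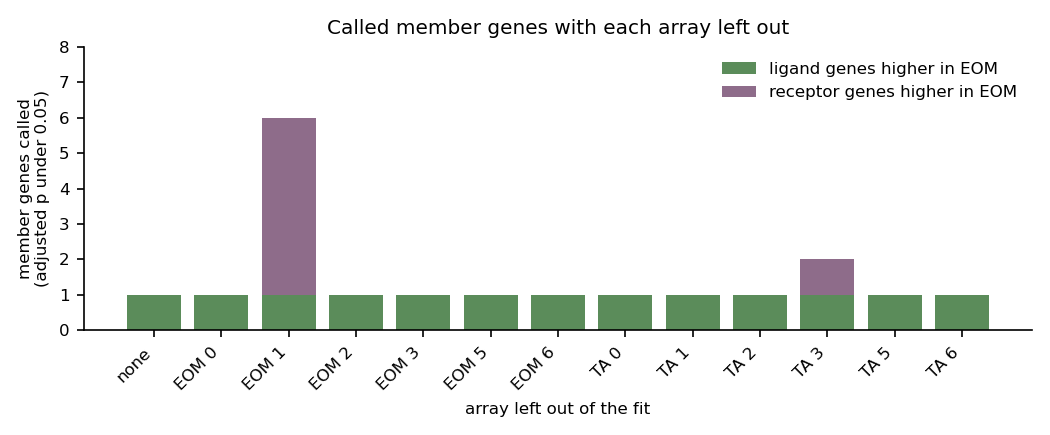
Number of Wnt ligand (green) and receptor (purple) genes called higher in EOM with limma when no array or 1 array is left out. The bar reaches 6 without EOM 1, 2 without TA 3 and 1 in every other fit; 0 member genes were called lower in any of them.

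Other genes of the pathway gave 8 calls among 69 tested, 7 higher and 1 lower in EOM. Over all tested genes 4.05% were called higher and 6.81% lower. Whether the pathway lists differed from all genes was not tested. In ligand maturation and secretion 2 of 7 rose, and both are glypicans, heparan sulphate proteoglycans that bind Wnts at the cell surface. Gpc3 was at 330.4 to 1101 (median 662) in EOM and at 101 to 274 (median 191) in TA, without overlap (log2 fold change 1.76 ± 0.31, limma adjusted p = 0.00106). Gpc6 was at 104 to 743 (median 593) against 103 to 215 (median 137), at 1.58 ± 0.38 (adjusted p = 0.0128); of its 4 other tested probe sets 1 also passed (1.76, adjusted p = 0.0333), and the others were at 0.25 to 0.78. Wls, the carrier that brings Wnts to the cell surface, had a log2 fold change of 0.77 (adjusted p = 0.435); leaving out EOM 1 gave 1.26 (adjusted p = 0.00794). Trabd2b, of the Tiki family of proteases that cleave Wnts, was then called lower (-0.91, adjusted p = 0.0464; -0.64, adjusted p = 0.364, with all arrays). Porcn, which adds the lipid, was at 0.08 (adjusted p = 0.952).

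On the beta-catenin route 1 of 25 rose, the relay protein Dvl2, at 116 to 169 (median 145) in EOM and 40.5 to 101 (median 71.9) in TA (0.90 ± 0.25, limma adjusted p = 0.0346). This call rests on the full set of arrays, as it was lost in 8 of the 12 fits with 1 array left out (without EOM 0, 2, 3, 5 or 6, or TA 0, 1 or 5), with an adjusted p of at most 0.0923. The median of this list was -0.12. Without EOM 1 the list held 2 higher and 2 lower genes: beside Dvl2, the scaffold Axin1 passed at 0.79 (adjusted p = 0.0306), Ctnnbip1, an inhibitor of beta-catenin, at -1.65 (adjusted p = 0.0185) and Dvl1 at -0.68 (adjusted p = 0.0466). Ctnnb1, beta-catenin itself, was at -0.18 (95% interval -0.88 to 0.52). Among feedback and target genes 1 of 11 rose, Lgr5, a receptor for R-spondins and a known Wnt target, at 46.1 to 128 (median 78.7) against 3.4 to 52.4 (median 9.65), at 1.71 ± 0.37 (adjusted p = 0.00594). Its TA median lay below the added constant of 16, at the level of genes too low to test, so that the size of its fold change is a difference from background. Axin2, the target most often used as a readout of beta-catenin signalling, was at 170 to 356 (median 214) in EOM and 134 to 271 (median 159) in TA, with a log2 fold change of 0.37 (interval -0.17 to 0.91, adjusted p = 0.492). Sox9, a transcription factor (1.60, adjusted p = 0.0533), Myc (0.87, adjusted p = 0.291), Ccnd1 (-0.98, adjusted p = 0.0603) and Lef1 (-1.20, adjusted p = 0.199) were not called. Once EOM 1 was left out, 3 of the 11 were called higher and 2 lower, again beside 10.0% and 10.5% of all tested genes. The higher ones were Lgr5, Sox9 (1.24, limma adjusted p = 0.0474) and Myc (1.32, adjusted p = 0.00182). The lower ones were Ccnd1 (-1.18, adjusted p = 0.00365) and Lef1 (-1.55, adjusted p = 0.0240). For Lef1 the adjusted p was 0.0986 when TA 3 and TA 5 were left out too. With all arrays, other tested probe sets gave 0.87 and 0.98 for Sox9 and -0.91 and -1.23 for Ccnd1, and none of these passed.

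Among genes of the beta-catenin-independent routes 2 of 22 rose and 1 fell, with a list median of 0.00. Mapk9, the kinase JNK2, was at 424 to 2857 (median 1903) against 344 to 696 (median 437), at 1.72 ± 0.40 (limma adjusted p = 0.00970), while its 2 other tested probe sets gave 0.98 and 0.14 and did not pass. Camk2d, a calcium-activated kinase, was at 0.90 ± 0.24 (adjusted p = 0.0249). Rock1, a kinase that acts on the actin cytoskeleton, fell, from 957 to 1626 (median 1177) in TA to 554 to 825 (median 660.3) in EOM, at -0.88 ± 0.22 (adjusted p = 0.0167). The Camk2d call was lost in 5 fits, without EOM 0, 2 or 6 or TA 0 or 1, and that of Rock1 without EOM 2, where the highest adjusted p values were 0.0751 and 0.0531. Without EOM 1 the formins Daam1 (0.87, adjusted p = 0.00958) and Daam2 (-1.08, adjusted p = 0.0103) passed too. None of the 5 other tested probe sets of Camk2d (-0.07 to 1.05) or the 4 of Rock1 (-0.49 to 0.41) passed. Among the partners of Frizzled in Wnt7 and norrin signalling 1 of 4 rose: Adgra2, known as Gpr124, at 275 to 378 (median 352) in EOM and 56.7 to 200 (median 145) in TA (1.24 ± 0.27, adjusted p = 0.00573). Reck, which binds Wnt7 beside Adgra2, was at 1.40 ± 0.50 (adjusted p = 0.101), and it passed without EOM 1 (1.98, adjusted p = 3.24e-06). Tspan12, the Fzd4 partner for norrin, was at -1.06 (adjusted p = 0.170). Without EOM 1, TA 3 and TA 5, 2 of the 4 were called higher and 2 lower, beside 10.6% and 11.2% of all tested genes. The lower ones were Tspan12 (limma adjusted p = 0.0144) and Tnfrsf21 (adjusted p = 0.00554). With all arrays Tnfrsf21 was at -0.82 (adjusted p = 0.429).

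**Figure D4:**
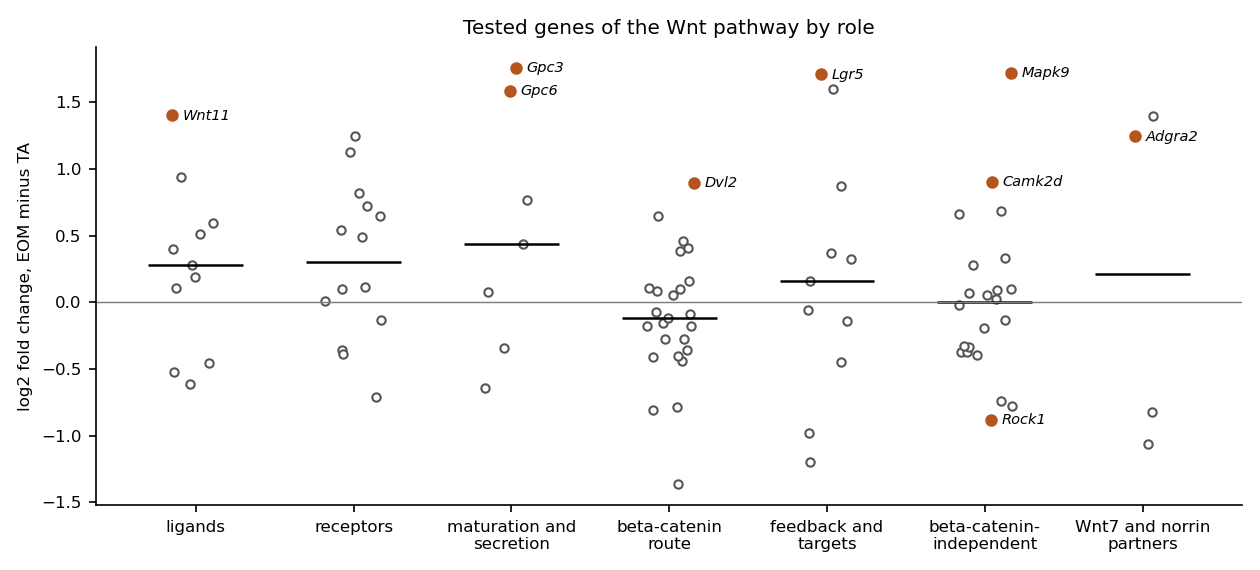
Log2 fold change (EOM minus TA, 12 arrays) of each tested gene of 7 groups of the Wnt pathway; filled orange points passed in limma, open points did not, and lines are medians. Wnt11, Gpc3, Gpc6, Dvl2, Lgr5, Mapk9, Camk2d and Adgra2 lie above 0 among the genes that passed and Rock1 below; medians lie between -0.12 and 0.44.

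Markers of several cell types moved with the groups. Sums are over the listed genes on the array, tested or not. Over all tested genes 4.05% were called higher and 6.81% lower. Of 12 endothelial markers 10 fell in EOM (limma, median -2.97), and their summed signal ranged from 1594 to 2905 over EOM arrays and from 8416 to 30684 over TA arrays. Of 9 pericyte and smooth muscle markers 7 fell (median -2.63; sums over 10 genes 6186 to 10732 against 20455 to 34175), and of 8 leukocyte and macrophage markers 5 fell (median -2.24; sums over 9 genes 300 to 1578 against 1426 to 5490). Of 10 fibroblast markers 4 rose and 0 fell (median 1.11; sums over 11 genes 119112 to 162556 in EOM against 70195 to 124612 in TA). Of 7 myogenic markers 2 fell (sums over 11 genes 345 to 982 against 731 to 1820), and of 4 Schwann cell and neural markers 0 were called (sums 620 to 15869 against 1222 to 3100, the top value on EOM 1). Some estimates went against the direction of their list. They were Abcc9 (0.94) among pericyte markers, Col1a1 (-0.84) and Col1a2 (-0.09) among fibroblast markers, and Msc (0.405) among myogenic markers. No signal in the table was 0. The 12 endothelial markers ran from -4.75 (Egfl7) to -0.18 (Tek), with Pecam1 (-1.84, adjusted p = 0.0702) and Tek (adjusted p = 0.904) not called; Fzd4, named above as endothelial, was at -0.39. The part of these cell types in the values of Wnt11, the glypicans and the receptors was not tested.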

How the data were processed

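Total RNA of each preparation was amplified in a two-cycle protocol, labelled with biotin and hybridized, per the labels' protocols. The deposited values are signal intensity on a linear scale, which the authors summarized with MAS5 per the submitters' processing notes; each array has the same mean, trimmed by 2% at each end. Such scaling multiplies background and signal alike.

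Of 45101 probe sets, 64 controls were left out. Symbols came from the platform annotation, and 0 of the member symbols differed from current names (GRCm38.p6). No 2 columns were identical, and 0 columns were unused. Groups and replicate numbers came from the titles. Signals were taken as log2(signal + 16). Probe sets in the bottom 40% by the mean of these were not tested. The test was that of limma 3.58.1 under R 4.3.3 (lmFit, eBayes with intensity trend, two-sided), which was tested on simulated data. The precision is limited by 6 arrays per group; the preparations were separate, per the labels.

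The members and the lists were chosen with earlier results of these data known. Every member is accounted for, with array values for called or non-overlapping members and, of each pathway list, the called genes; other genes are named where leaving out an array changed a call or as background, chosen after their values were seen. Same-numbered arrays did not deviate together (correlations of -0.317 to 0.157), so no pairing was used. Alternatives were other constants, scalings, filters, variance models, array weights, a replicate block, averaged probe sets and each array left out; the removal of 3 arrays and a covariate for the actin ratio were added after seeing the data. Promoter windows were searched in Python.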

Additional observations from a re-analysis of the deposited data

Results flagged for a closer look

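Among the 25 tested member genes, 10 of 50 groups of 6 arrays held 1 array whose gap to its nearest neighbour was large for the range of the group on the log2 scale (Dixon's ratio); chance alone gives about 1 in 20. That is 20% of the member groups, beside 17.9% of the 26134 groups of all tested genes, where 75.8% of such arrays were EOM 1 (6 of 10 among the members); the members' share is close to that of all genes. EOM 1 was lowest for Fzd5 (ratio 0.884, signal 117 against 877 for the next array), Fzd6 (0.843, 48.8 against 206), Ror1 (0.771, 77.8 against 277) and Fzd1 (0.645, 216 against 447). It was highest for Wnt5a (0.742, 433 against 127) and Wnt6 (0.6253, 224 against 81.1). EOM 3 was highest for Wnt10b (0.655, 89.3 against 36.5). Among TA arrays, TA 3 was highest for Lrp6 (0.667, 463 against 229.9) and lowest for Fzd6 (0.640, 138 against 283), and TA 5 was lowest for Ror1 (0.641, 35.6 against 97.2).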

How the results depend on the processing

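Wnt11 passed in all 24 alternatives, with log2 fold changes of 1.25 to 1.61 and adjusted p values of 1.25e-05 to 0.0326, the highest with median centring. Of the 589 fold changes of the 25 member genes under alternatives, 549 kept direction and side of the threshold, 25 passed only there (24 higher and 1 lower in EOM) and 15 changed sign. Called probe sets (866 higher and 1359 lower of 27022) became 555 and 890 with median centring and 2616 and 2872 with array weights. They were 2256 and 2419 without EOM 1, TA 3 and TA 5, and 903 and 1307 of 18015 with the 60% filter. Ligand genes called higher were 2 with median centring, 3 with array weights, 2 without the 3 arrays and 2 with the 3' to 5' ratio. Receptor genes called higher were 1 with the 60% filter, 5 with array weights, 5 without the 3 arrays, 1 with the ratio and 1 with averaged probe sets; array weights gave 1 lower. With 1 array left out, higher probe sets ranged from 568 to 2128, lower ones from 1011 to 2233 and receptors called higher from 0 to 5. Signs changed for 5 genes that were never called: Fzd9 -0.0038 with a constant of 64 and -0.13 with array weights; Fzd3 0.016 with array weights and 0.035 with the ratio; Fzd8 -0.060 averaged. With the ratio, 1274 probe sets were higher and 1845 lower. With 1 array left out, Fzd9 ranged from -0.31 to 0.30, Fzd3 from -0.25 to 0.0064, Wnt2b from -0.15 to 0.37 and Wnt7a from -0.048 to 0.42. The causes were not tested. The replicate block gave 607 higher and 1025 lower probe sets and Wnt11 at 1.40 (adjusted p = 0.00477), with 0 receptors called; 1 of 6 EOM arrays correlated best with its own number. Low signals limit most ligands.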
